A study of Homo sapiens with 18 samples.

Results

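Mature miRNAs were compared between day 7 and day 3 of culture in HCT116 cells, an established human colorectal carcinoma line of epithelial origin, grown wild type in McCoy's 5A medium with fetal bovine serum. Per the labels, day 3 cells stood at 50% confluency and day 7 cells at 400%, and each day had 3 libraries described as biological replicates. Cells of day 5, at 250% confluency, also had 3 libraries, which are given here as values only. Whole cell RNA was extracted with Trizol and small RNA libraries were made from it, so all groups share cell line, genotype and extraction, while day and density changed together and cannot be told apart. The deposited table lists 2167 mature miRNAs, and the 559 with a log2 value of at least 3.32 (a normalized value of 10) in at least 3 of the 6 day 3 and day 7 libraries were tested. The other 1608 were not tested. At the edge of this selection, miR-2355-3p, miR-452-5p and miR-7976 had 3.33, 3.35 and 3.38 as their log2 value ranked 3 from the top and were inside, whereas miR-5001-5p, miR-4472 and miR-130a-5p had 3.31, 3.30 and 3.30 and were outside.

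A mature miRNA is a short RNA cut by Dicer from one arm of a hairpin precursor, the 5p or the 3p arm. Loaded into an Argonaute protein, it pairs with messenger RNAs mainly through its seed, bases 2 to 8 from its 5′ end, and lowers their stability or translation. miRNAs with the same seed are counted as a family because they can pair with the same sites.

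The first sequences shown are 6 of the 10 miRNAs with the largest rises, with the seed in capitals, chosen as those at measurable levels on both days and miR-3617-5p, the largest rise from below the selection level. They come from RefSeq (GRCh38.p14), in which 484 of the 559 tested miRNAs were found. No seed is shared among these 6, and both arms of the miR-210 hairpin are present.
miR-210-5p: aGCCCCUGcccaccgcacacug
miR-210-3p: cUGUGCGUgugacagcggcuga
miR-935: cCAGUUACcgcuuccgcuaccgc
miR-3605-3p: cCUCCGUGuuaccuguccucuag
miR-3617-5p: aAAGACAUaguugcaagauggg
miR-21-5p: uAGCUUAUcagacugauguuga

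The next sequences are those found for 8 of the 10 largest falls, shown because of their base composition, and that of miR-12135, an AU-rich sequence with the largest fall among abundant miRNAs. miR-3195 and miR-3960 are named only.
miR-6743-5p: aAGGGGCAgggacggguggccc
miR-10396b-3p: gGCCCCGGgcccucgaccggac
miR-4632-3p: uGCCGCCCucucgcugcucuag
miR-4787-5p: gCGGGGGUggcggcggcauccc
miR-4739: aAGGGAGGaggagcggaggggcccu
miR-6089: gGAGGCCGggguggggcggggcgg
miR-4634: cGGCGCGAccggcccgggg
miR-4485-3p: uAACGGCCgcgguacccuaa
miR-12135: uAAAGGUUuguuuguaaa

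The last set shows families whose values are compared within a shared seed. miR-429 shares its seed with miR-200b-3p and miR-200c-3p, miR-141-3p of the same family has a different seed, and the miR-99 and miR-100 sequences share theirs, as do those of let-7.
miR-429: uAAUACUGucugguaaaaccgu
miR-141-3p: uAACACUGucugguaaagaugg
miR-100-5p: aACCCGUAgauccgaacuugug
miR-99a-5p: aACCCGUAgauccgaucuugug
miR-99b-5p: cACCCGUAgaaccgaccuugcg
let-7a-5p: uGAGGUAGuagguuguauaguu
let-7c-5p: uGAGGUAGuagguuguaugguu
let-7i-5p: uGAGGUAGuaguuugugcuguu

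Values below are log2 values as deposited, and a difference is the mean of day 7 minus the mean of day 3. With limma and Benjamini-Hochberg adjustment over all 559 miRNAs, 300 (53.7%) passed an adjusted p of 0.05, of which 253 were higher on day 7 (45.3% of those tested) and 47 lower (8.41%). The direction of the smaller differences rests on how libraries are put on 1 scale. The values of a library, taken out of the log, summed to 1542087 to 1947371 on day 3 and to 2452607 to 2600754 on day 7, and the median difference over all 559 was 0.30. When each library was divided by its own total, 319 miRNAs passed (57.1%), 93 higher (16.6%) and 226 lower (40.4%), with a median difference of -0.20. All 93 were also higher on the deposited scale, and all 47 that were lower there were lower on both. These 140 miRNAs held their direction on both scales, and 4 miRNAs were called in opposite directions.

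The libraries of day 3 spread more than those of day 7, with a median SD per miRNA of 0.18 against 0.093. Day 3 replicate 3 lay 0.23 below the other 2 libraries of its day at the median. Without it, 301 miRNAs passed, 247 higher and 54 lower, the median difference was 0.24, and the number that rose at least 2-fold was 25 in place of 42. The number that fell at least 2-fold was 14 in place of 16. The 42 and the 16 include miRNAs that passed the selection through 1 day only, and so had to differ. Without those, and with all 6 libraries, 31 rose and 11 fell at least 2-fold. Over all 559 miRNAs, 5 rose and 35 fell at least 2-fold on library totals. The values of the 3 libraries of a day and those of the other day did not overlap for 367 of the 559 miRNAs (65.7%).

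**Figure D1:**
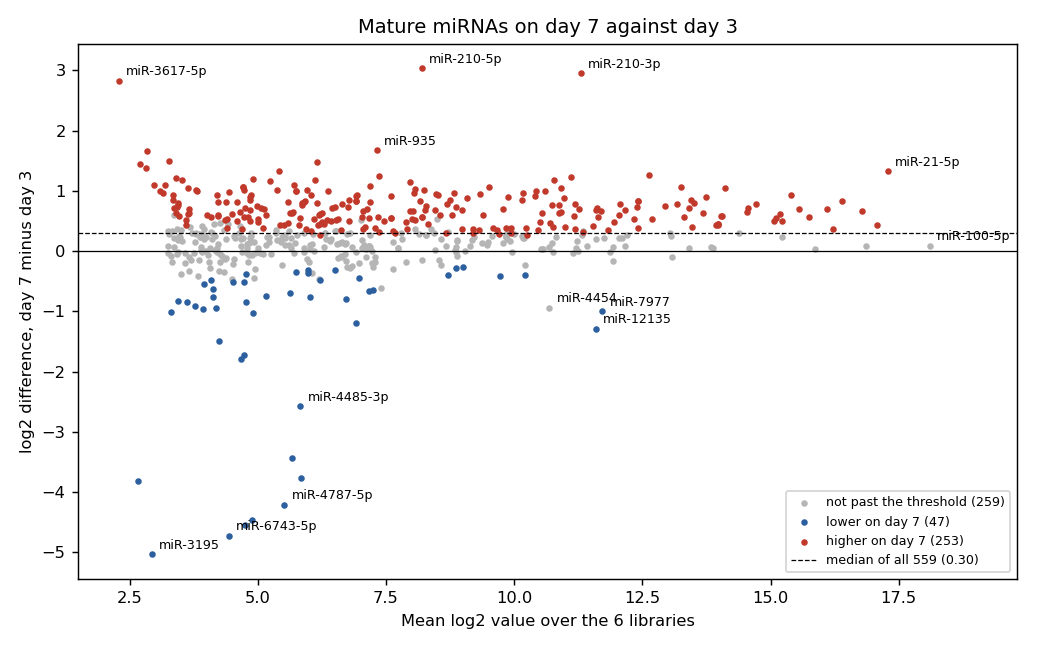
Difference between day 7 and day 3 (log2, vertical axis) against the mean log2 value over the 6 libraries (horizontal axis) for the 559 tested miRNAs, coloured by whether they passed the limma test. The dashed line is the median difference of 0.30, and the largest falls, down to -5.04 for miR-3195, lie at low mean values while rises occur over the whole range.

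The arms of miR-210, the miRNA best known for its induction by hypoxia, showed the largest rise of any hairpin. Its locus is at chr11:568089-568198 on the minus strand (GRCh38), in an intron of its host transcript MIR210HG. miR-210-5p read 6.70, 6.69 and 6.64 in the 3 libraries of day 3 and 9.71, 9.70 and 9.74 on day 7. That is a difference of 3.04 (SE 0.09, limma adjusted p = 3.44e-07), or 8.21-fold. miR-210-3p, the more abundant arm, read 10.05, 10.08 and 9.34 on day 3 and 12.73, 12.84 and 12.76 on day 7, a difference of 2.95 (SE 0.19, adjusted p = 2.16e-05). Both arms came under the rule for the largest rises, which required no overlap between the libraries of the 2 days. On library totals the differences were 2.53 and 2.45, and on day 5 the arms already averaged 9.26 and 11.57.

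miR-21-5p, a miRNA raised in many carcinomas that represses the tumour suppressor PDCD4, was the second most abundant miRNA over both days together and rose as well. Its hairpin lies at chr17:59841266-59841337 on the plus strand, overlapping an exon of VMP1. Its log2 values were 16.70, 16.75 and 16.42 on day 3 and 17.91, 17.98 and 17.96 on day 7, a difference of 1.33 (SE 0.12, adjusted p = 0.000121). Its share of the total was 5.68% ± 0.0324 (SD, n = 3) at day 3 and 10.1% ± 0.134 (SD, n = 3) at day 7. The opposite arm miR-21-3p rose by 0.62, and that call was lost on library totals (0.12).

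Among the other 7 of the 10 largest rises, the values were lower. miR-935, from a hairpin overlapping an exon of CACNG8, read 6.78, 6.54 and 6.14 on day 3 and 8.13, 8.17 and 8.18 on day 7. Its difference was 1.67 (SE 0.16, adjusted p = 0.000172). miR-3605-3p, from a hairpin overlapping an exon of PHC2, rose by 1.48, from a mean of 5.43 ± 0.115 (SD, n = 3) to 6.90 ± 0.131 (SD, n = 3). Both were chosen among rises without overlap between the days, so that their libraries had to lie apart.

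The remaining 5 of these 10 were below the selection level on day 3 and passed it only through the day 7 libraries, so that they had to differ. They were miR-3617-5p (difference 2.83), miR-2116-5p (1.66), miR-4697-3p (1.49), miR-2110 (1.45) and miR-452-5p (1.37). miR-3617-5p, for example, read 0.58, 0.64 and 1.39 on day 3 and 3.80, 3.89 and 3.40 on day 7. In all, 15 miRNAs passed the selection through day 7 libraries only and 6 through day 3 libraries only. The 5 rises that did not enter through day 7 alone were also called on library totals.

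Of the miRNAs with a mean normalized value of at least 1000, the largest rises beside miR-210-3p and miR-21-5p were in 6 miRNAs, 2 of them from the miR-30 family. miR-30b-5p read 12.10, 12.20 and 11.66 on day 3 and 13.15, 13.33 and 13.28 on day 7 (difference 1.27, SE 0.15, adjusted p = 0.000388). miR-30d-5p rose by 1.18 and miR-425-5p by 1.22. miR-28-3p rose by 1.07, miR-375-3p, a miRNA of endocrine and gut epithelial cells, by 1.05, and miR-181a-5p by 1.05. All 6 were also called higher on library totals, with differences of 0.55 to 0.77.

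**Figure D2:**
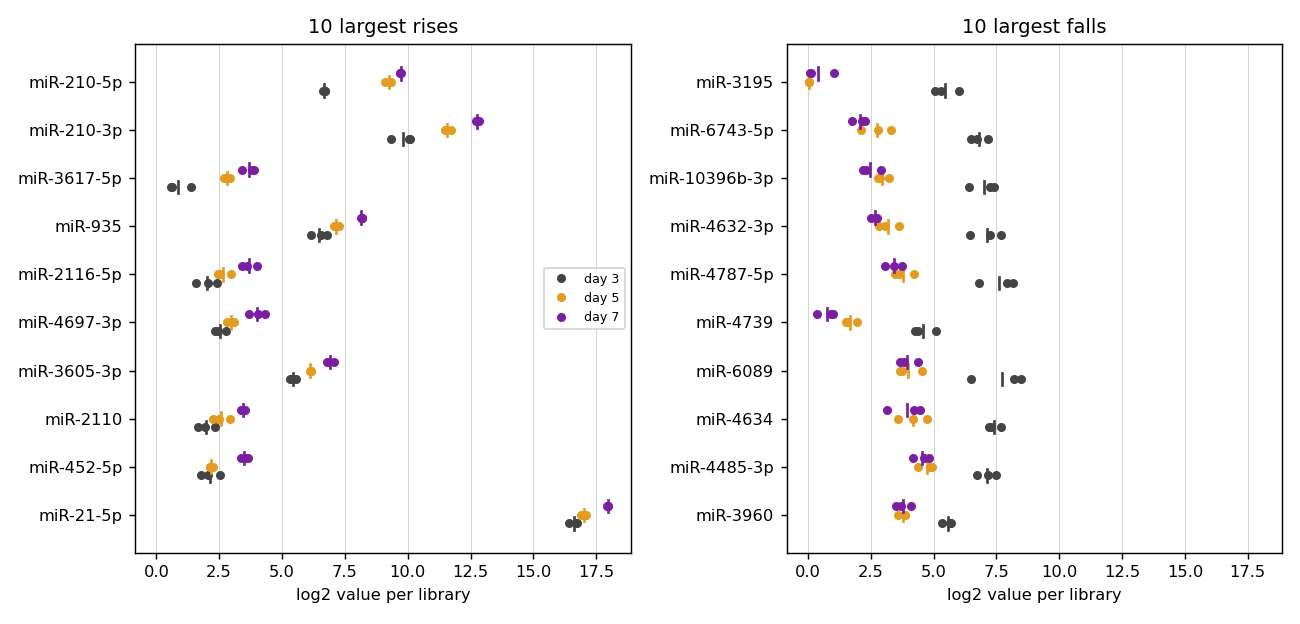
Log2 values of each library (points) and their means (vertical bars) on day 3, day 5 and day 7 for the 10 largest rises and the 10 largest falls whose libraries did not overlap between day 3 and day 7. In the falls, the day 5 points lie with or near those of day 7, whereas in most rises they lie between the other 2 days.

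The largest falls were in miRNAs with high numbers in their names, that is, ones entered late into the catalogue. miR-3195 had the largest fall, from 6.01, 5.31 and 5.05 on day 3 to 0.09, 0.13 and 1.03 on day 7 (difference -5.04). miR-6743-5p, whose hairpin overlaps an exon of RIC8A, read 7.17, 6.72 and 6.51 on day 3 and 2.17, 1.76 and 2.28 on day 7 (difference -4.73). The day 7 values of both were below the selection level of 3.32, on a scale that runs from -2.64 to 18.28 in these libraries.

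miR-10396b-3p fell by 4.55 on the log2 scale, miR-4632-3p, from an intron of TNFRSF1B, by 4.46, and miR-4739 by 3.82. With miR-3195 and miR-6743-5p, these were 5 of the 6 miRNAs that passed the selection through the day 3 libraries only, so that they had to differ, and their values are given with no test. miR-4787-5p, from a hairpin overlapping an exon of DOCK3, read 8.14, 7.91 and 6.80 on day 3 and 3.73, 3.05 and 3.44 on day 7. miR-6089 read 8.48, 8.22 and 6.50 on day 3 and 4.39, 3.65 and 3.84 on day 7. In both, day 3 replicate 3 was the lowest library of its day by over 1 log2 unit. It still lay above all day 7 libraries, as the rule that chose them required. The last 3 of the 10 largest falls were miR-4634 (-3.44), miR-4485-3p (-2.58) and miR-3960 (-1.79).

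The level on day 5 was already low for these 10. miR-3195 read 0.06, 0.06 and 0.05 on day 5, and miR-6743-5p 2.81, 2.13 and 3.29. Of all 47 miRNAs that were lower on day 7, the day 5 mean lay past the midpoint between the other 2 days in 29, and at or past the day 7 mean in 10. Of the 253 that were higher on day 7, it lay past the midpoint in 61 and on the other side of the day 3 mean in 52. These counts share the day 3 and day 7 libraries with the test and are a description.

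Among miRNAs with a mean normalized value of at least 1000, 3 fell with no overlap between days. miR-12135, from an intron of NEO1, read 12.32, 12.18 and 12.19 on day 3, 11.83, 11.88 and 11.70 on day 5 and 10.94, 10.80 and 11.09 on day 7, a difference of -1.29 (SE 0.11, adjusted p = 0.000121). miR-7977 fell by 0.99 on the log2 scale, from 12.17, 12.22 and 12.26 to 11.32, 11.22 and 11.13. miR-7974 fell by 0.39, a call that was lost without day 3 replicate 1 (difference -0.38) or day 7 replicate 3 (-0.32). The rule that chose these 3 required that their libraries not overlap between the days.

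The falls on the deposited scale were distributed unevenly over names, base composition and length. All 16 miRNAs that fell at least 2-fold were among the 111 tested miRNAs numbered 3000 and over, of which 33 rose and 23 fell. Of the 396 numbered under 1000, 197 rose and 16 fell, none of them 2-fold. On library totals, 51 of the 111 and 155 of the 396 were lower, beside 40.4% of all tested. Of the 16 that fell at least 2-fold, 5 had entered through the day 3 libraries only. Without all 21 miRNAs that entered through 1 day only, a setting chosen after seeing the data, 11 fell at least 2-fold, all 11 among the 100 numbered 3000 and over, of which 28 rose and 17 fell. Among the 93 tested miRNAs whose name gives no arm, 25 rose and 22 fell, beside 12 falls among 230 named as 5p and 13 among 236 named as 3p. On library totals, 53 of the 93 were lower, beside 88 of the 230 and 85 of the 236. Without those that entered through 1 day only, 23 of the 89 with no arm in the name rose and 20 fell.

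The median GC content was 50% over the 484 tested miRNAs with a sequence, 47.8% in the 221 that rose, 55.8% in the 44 that fell and 74.1% in the 14 that fell at least 2-fold. Of the 35 miRNAs with a GC content of 70% or more, 12 fell (34.3%), 8 of them at least 2-fold, and 15 rose. Without the miRNAs that entered through 1 day only, the median GC content of the 10 that fell at least 2-fold was 68.1%, and 9 of 31 miRNAs with a GC content of 70% or more fell (29.0%), 5 of them at least 2-fold, beside 30 of 434 below it (6.91%). In the bands of lower GC content, 6.38% to 8.82% fell. On library totals, 15 of the 35 at 70% or more were lower. In the bands of lower GC content, 47 of 109, 50 of 131, 53 of 141 and 32 of 68 were lower there. High GC content did not go with falls alone, since miR-210-5p, at 72.7% GC, had the largest rise, and across the 484 miRNAs GC content and difference had a Spearman correlation of -0.070. miR-4787-3p, at 83.3% GC, rose by 0.99.

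Short miRNAs also fell more often. Of the 22 that are 19 nt or shorter, 10 fell (45.5%), 4 rose, and the median difference was -0.25, beside 20 falls and 115 rises among the 265 of 22 nt. The 81 of 23 nt had 2 falls and 49 rises, with a median of 0.41. On library totals, 17 of the 22 were lower, beside 116 of the 265 and 25 of the 81. These bands were not tested against each other, and GC content, length and catalogue number overlap in the same miRNAs.

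**Figure D3:**
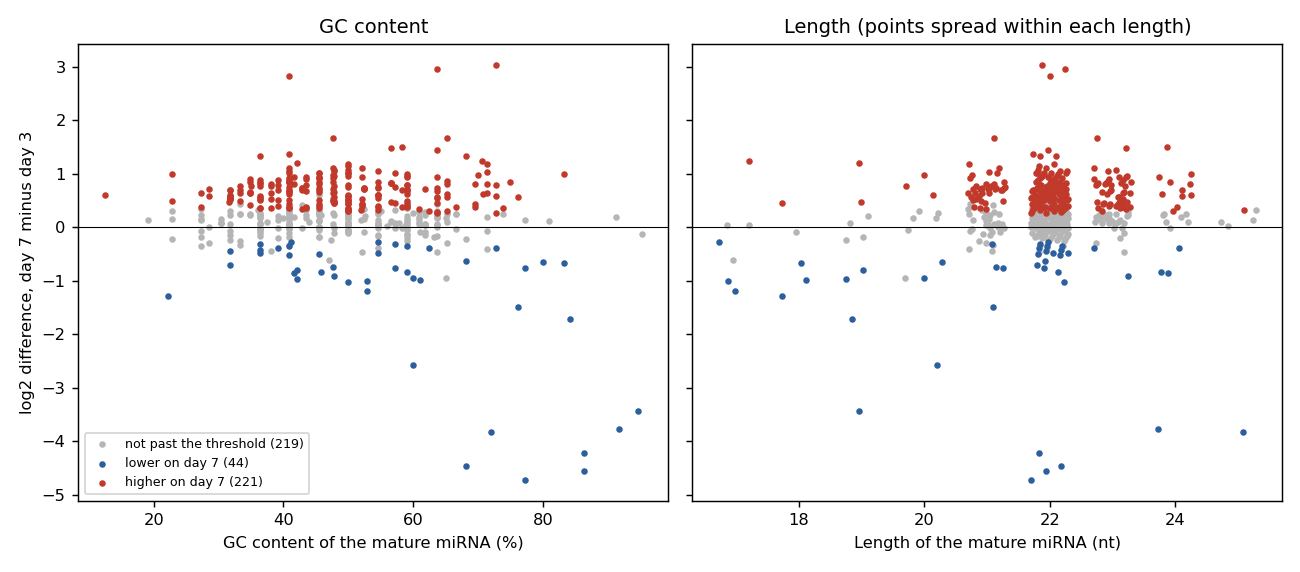
Difference between day 7 and day 3 (log2) against GC content in percent (left) and length in nt (right) for the 484 tested miRNAs with a RefSeq sequence, coloured by the result of the limma test. Most differences beyond -3 are at a GC content of 70% or more, and lengths of 17 to 19 nt hold more falls than rises.

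Some short sequences listed as miRNAs are also contained in other, abundant RNAs, and a search of the 484 sequences in ribosomal, transfer, small nuclear, small nucleolar, mitochondrial, 7SL, 7SK, Y and vault RNAs, chosen after the values were seen, found 17 with at most 1 mismatch. Of these, 8 fell, 4 rose and 5 did not pass, and on library totals 12 fell and none rose. Among the other 467, 36 fell and 217 rose, and on library totals 185 were lower and 80 higher. The match was exact for 8 of the 17, whose reads cannot be assigned to a miRNA hairpin from the sequence alone, and had 1 mismatch for 9. Without the miRNAs that entered through 1 day only, 7 of 16 fell.

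miR-10396b-3p and miR-1268a match the transcribed spacers of 45S pre-ribosomal RNA exactly, and miR-7704 matches its 28S part with 1 mismatch. miR-7704 fell by 1.72 and miR-1268a by 0.67 on the log2 scale. miR-4485-3p is identical to a stretch of the mitochondrial ribosomal RNA MT-RNR2, and miR-1246 to one of the U2 small nuclear RNA. miR-1246 read 4.20, 3.80 and 5.22 on day 3 and 3.68, 3.30 and 3.34 on day 7 (difference -0.97), a call lost without day 7 replicate 2 (-0.90) or replicate 3 (-0.91).

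miR-7977 matches glycine transfer RNAs and miR-4454 histidine transfer RNAs, each with 1 mismatch. miR-4454 stood out by its spread, at 11.49, 11.27 and 10.72 on day 3, 10.53, 11.69 and 8.94 on day 5, and 12.29, 9.36 and 9.01 on day 7. Its difference of -0.94 (SE 0.75, adjusted p = 0.316) did not pass, and without day 7 replicate 1 it was -1.98 and passed. Levels of the other RNAs were not analysed here, and their part in these results was not tested.

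The 10 most abundant miRNAs had shares that were higher or lower on day 7, and these differences partly cancel in their sum. Together they held 55.7% ± 0.364 (SD, n = 3) of the day 3 total and 55.1% ± 0.273 (SD, n = 3) of the day 7 total. The two-sided exact permutation test gave p = 0.2, where 0.1 is the smallest that 3 against 3 libraries allow. Shares within a library do not depend on the scale between libraries.

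Within these 10, miR-21-5p gained most, as given above. miR-100-5p, a miRNA that represses mTOR and the most abundant one, went from 15.4% ± 1.21 (SD, n = 3) to 11.6% ± 0.429 (SD, n = 3). miR-92a-3p, of the miR-17-92 cluster, went from 6.56% ± 0.788 (SD, n = 3) to 4.88% ± 0.137 (SD, n = 3), and miR-99b-5p from 3.31% to 2.41%. For all 4, shares did not overlap between the days (exact permutation p = 0.1).

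let-7a-5p went from 3.62% to 4.54%, miR-10a-5p from 5.03% to 5.65% and miR-26a-5p from 3.11% to 3.57%, again with no overlap (exact permutation p = 0.1). The shares of miR-191-5p (6.64% and 6.36%), miR-22-3p (3.81% and 3.45%) and miR-92b-3p (2.54% and 2.65%) overlapped between days, with exact permutation p of 0.2, 0.3 and 0.6. On the deposited scale, 7 of the 10 rose and none fell, while on library totals miR-21-5p and let-7a-5p were higher, miR-100-5p, miR-92a-3p and miR-99b-5p lower, and the other 5 not past the threshold. The call of miR-191-5p (0.44) was lost without day 7 replicate 1 or replicate 2 (0.44 and 0.41), and that of miR-22-3p (0.37) without day 7 replicate 2 (0.34).

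By level, rises made up a larger share of the more abundant miRNAs. Of the 38 with a mean normalized value of 10000 or more, 30 rose and none fell (median difference 0.57), while of the 285 under 100, 106 rose and 35 fell (median 0.25). On library totals the counts were 10 higher and 8 lower among the 38, and 36 higher and 113 lower among the 285. Without the miRNAs that entered through 1 day only, 91 of the 264 under 100 rose and 29 fell (median 0.24). On library totals, 23 of these 264 were higher and 107 lower. The Spearman correlation between level and difference was 0.16 across the 559 miRNAs.

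Of the 100 most abundant miRNAs, those with the smallest differences were miR-615-3p (0.01), miR-96-5p (-0.01), miR-148b-3p (-0.02), miR-200b-3p (-0.04) and miR-99b-5p (0.04), each with an SE of 0.13 to 0.14. All 5 were called lower on library totals, with differences of -0.46 to -0.54. On that scale they stand below most miRNAs, as they also stand below the median difference of 0.30 on the deposited scale.

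The families were read against the 45.3% of tested miRNAs that rose and the 8.41% that fell. On library totals the shares over all tested miRNAs were 16.6% higher and 40.4% lower. Members of a family can have near-identical sequences, so reads can be split between them by the mapping. No member of the 18 family and cluster lists was called lower on the deposited scale, while members of 9 of these lists were lower on library totals. The lists do not hold every arm of these families. Among arms outside them, miR-25-5p, miR-301a-5p and miR-301b-5p were called lower, while others such as miR-18a-3p were called higher.

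The let-7 family, which represses RAS, MYC and HMGA2 and marks differentiated cells, was called higher in 9 of 9 members, with a median difference of 0.70, and in 5 of 9 on library totals. let-7a-5p, the most abundant, read 16.05, 16.14 and 15.73 on day 3 and 16.74, 16.85 and 16.81 on day 7 (difference 0.83, SE 0.13, adjusted p = 0.00107). let-7c-5p rose most (1.01) and let-7i-5p least (0.44), and the call of the latter was lost on library totals (-0.07). All 9 share the seed shown above.

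The miR-30 family rose in 7 of 7 listed arms, by 0.38 to 1.27, and in 3 of 7 on library totals. miR-30a-5p rose by 1.01. miR-30c-5p rose least (0.38), and its call was lost when any 1 of the 3 day 7 libraries was left out (0.33 to 0.41) and on library totals (-0.12).

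In the miR-200 and miR-141 family, which represses ZEB1 and ZEB2 and holds cells epithelial, 7 of 9 rose. On library totals 3 of the 9 were higher and 2 lower. miR-141-3p read 13.34, 13.38 and 13.17 on day 3 and 14.13, 14.26 and 14.18 on day 7 (difference 0.89, SE 0.11, adjusted p = 0.00035). miR-200c-3p rose by 0.78, miR-200a-3p by 0.84 and miR-429 by 0.53, the last of which was not called on library totals (0.03). miR-200b-3p, which has the seed of miR-200c-3p and miR-429 and lies in 1 cluster with miR-429 on chromosome 1, read 11.26, 11.35 and 10.91 on day 3 and 11.15, 11.15 and 11.11 on day 7. These overlapped, and the difference of -0.04 has an SE of 0.13.

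The miR-183, miR-96 and miR-182 cluster was also uneven. miR-182-5p rose by 0.94 (SE 0.13, adjusted p = 0.000709), while miR-96-5p (-0.01) and a further member did not pass. On library totals miR-182-5p was higher (0.44) and both others were lower. The miR-99, miR-100, miR-125 and miR-10 list had 3 of 7 higher, and the 3 with the seed shown for miR-100-5p were at 0.09, 0.04 and -0.10 (miR-100-5p, miR-99b-5p and miR-99a-5p), none past the threshold. All 3 were lower on library totals, where the list as a whole had 0 of 7 higher and 4 lower.

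The miR-17-92 cluster and its paralogs, which MYC activates and which promote proliferation, had 6 of 15 tested members higher, with a median of 0.28, and 1 higher and 8 lower on library totals. miR-17-5p differed by 0.22 (SE 0.11, adjusted p = 0.118). miR-18b-5p rose most, by 0.90, at 4.62, 4.39 and 4.18 on day 3 and 5.28, 5.39 and 5.24 on day 7. The median of this list is near the 0.30 of all tested miRNAs.

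The miR-181 family had 3 of 4 higher, with miR-181a-5p at 1.05 and miR-181c-5p at 0.93. Of the p53-linked miRNAs, 4 of 5 tested rose, among them miR-34a-5p, a direct p53 target that represses cell cycle genes (difference 0.96, SE 0.13, adjusted p = 0.000672). The miR-23, miR-24 and miR-27 list had 6 of 8 higher (miR-27a-3p 0.71), the miR-29 family, which represses collagens, 3 of 3, and the miR-130 and miR-301 family 4 of 5. On library totals the counts were lower: 2 of 4 for miR-181, 2 of 5 for the p53-linked, 2 of 8 with 1 lower for miR-23, miR-24 and miR-27, 0 of 3 for miR-29, and 2 of 5 with 1 lower for miR-130 and miR-301.

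The miR-15 and miR-16 family, which represses cyclins and BCL2, had 3 of 6 higher, with miR-195-5p at 0.73 (0.23 on library totals, not called there) and miR-16-5p at 0.23 (SE 0.12, adjusted p = 0.146). miR-221-3p, which represses the cell cycle inhibitor p27, rose by 0.78, and 2 of 4 arms of miR-221 and miR-222 rose. Both tested members of the miR-26 list and both of the miR-103 and miR-107 list rose, as did 2 of 3 in the miR-21 list. On library totals the miR-15 and miR-16 family had 0 higher and 3 lower, miR-221 and miR-222 had 1 of 4 higher, miR-26 had 1 of 2, miR-103 and miR-107 had 0 of 2, and the miR-21 list had 1 higher and 1 lower. Neither of the 2 tested members of the miR-148 and miR-152 list passed (miR-148a-3p 0.07, SE 0.18), and both were lower on library totals.

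**Figure D4:**
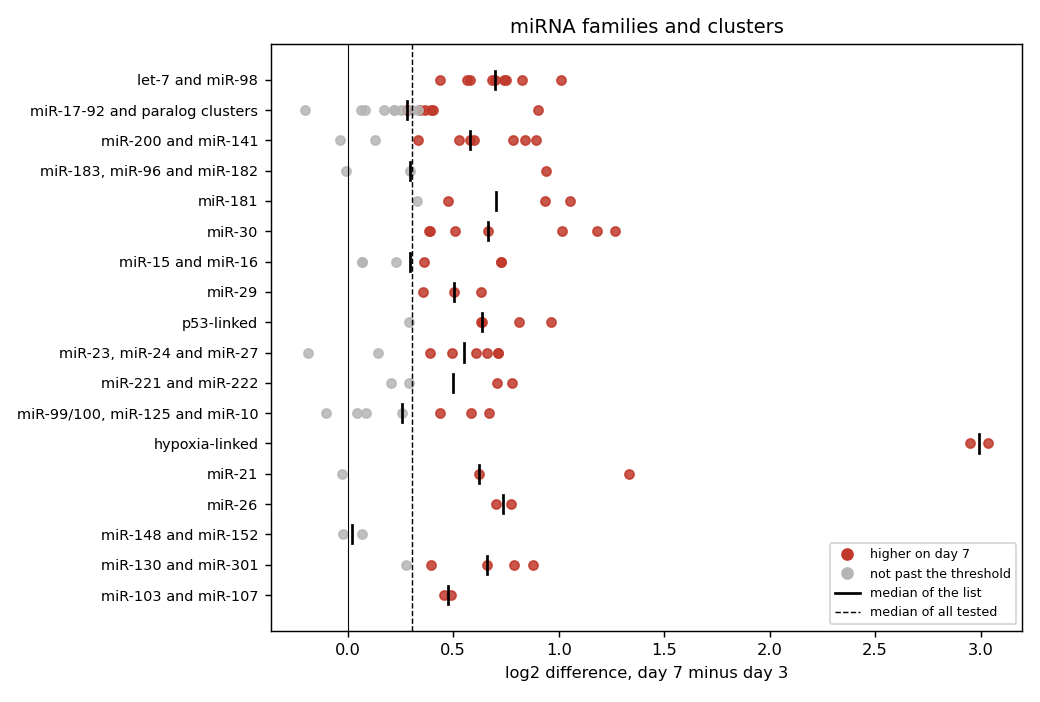
Difference between day 7 and day 3 (log2) of each tested member of 18 miRNA lists (points), with the median of each list (bar) and the median of all tested miRNAs (dashed line, 0.30). The 2 arms of miR-210 (hypoxia-linked) lie apart at about 3. Members of several lists, among them miR-200, miR-183, miR-21 and miR-17-92, lie on both sides of the dashed line.

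Markers of the labelled cell type were present. Of the 9 colon epithelial markers all were tested and 8 rose, while on library totals 5 were higher and 1 lower. Their normalized values summed to between 23284 and 29526 on day 3 and between 43421 and 46177 on day 7, on a scale whose library totals were 1.41-fold higher on day 7. miR-203a-3p, a skin and gut epithelial miRNA, rose by 0.92. Of 5 erythroid and serum markers only miR-486-5p was tested, and it rose by 1.06, while miR-451a, both arms of miR-144 and miR-122-5p were below the selection level.

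Of 6 immune cell markers 2 were tested, and all 6 summed to between 95.7 and 131 on day 3 and between 149 and 162 on day 7. miR-223-3p, miR-150-5p, miR-155-5p and miR-146a-5p were not tested. The endothelial markers, both arms of miR-126, summed to between 5301 and 7157 on day 3 and between 8987 and 9320 on day 7 (miR-126-5p 0.54, and 0.03 on library totals, where it was not called), and 4 of 6 mesenchymal markers were tested with 1 rise, and all 6 summed to between 663 and 1053 on day 3 and between 1153 and 1274 on day 7. No muscle marker was tested. Of 5 neural markers 4 were tested and 1 rose, while miR-128-3p was at 0.06, and all 5 summed to between 13454 and 15150 on day 3 and between 15681 and 16086 on day 7. Per the labels all libraries are of HCT116 cells, so these sums are not read as shares of other cell types, whose part was not tested.

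The ratio of the arms of a hairpin is measured within a library and so is not changed by dividing libraries by their totals. It can depend on the transformed scale where 1 arm is weakly expressed, since differences of weak miRNAs may be compressed there, and the arms of let-7a, for example, differed by 10.19 log2 units on day 7. Of 139 hairpins with both arms tested, the difference between arms changed in 53 (38.1%) by limma with adjustment over the 139. The 5p arm gained on the 3p arm in 32 and the 3p on the 5p in 21. In 46 of the 53 the more abundant arm gained, and in 7 the less abundant one. Without day 7 replicate 2 or without day 7 replicate 3, 28 hairpins passed in place of 53.

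The hairpin of miR-4787 changed most. Its 5p minus 3p difference was 2.25, 1.97 and 1.03 on day 3 and -3.01, -3.96 and -3.40 on day 7, a change of -5.20 (SE 0.36, adjusted p = 0.000338). The 5p arm was the more abundant on day 3 and the 3p arm on day 7, since miR-4787-5p fell by 4.21 on the log2 scale while miR-4787-3p rose by 0.99. The more abundant arm differed between days in 5 of the 139 hairpins.

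In miR-301b and miR-301a the abundant 3p arm rose (0.88 and 0.79) and the 5p arm was called lower (-0.55 and -0.36), giving changes of -1.43 (SE 0.33) and -1.14 (SE 0.18) in 5p minus 3p. The call of miR-301b-5p was lost when any 1 of the 3 day 7 libraries was left out (-0.51 to -0.60), and that of miR-301a-5p without day 7 replicate 2 (-0.33). In miR-33b, which lies in an intron of SREBF1 and represses cholesterol export, the 5p arm rose (0.60, and 0.10 on library totals, where it was not called) and the 3p arm fell by 0.40, a change of 1.00 (SE 0.23). The calls of miR-33b-5p (0.57) without day 7 replicate 2, and of miR-33b-3p without day 7 replicate 2 or replicate 3 (-0.40 and -0.37), were lost. With miR-4787 these are the 4 hairpins whose arms were called in opposite directions, and 49 hairpins had both arms called higher.

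For let-7a, made from several hairpins, the 5p minus 3p difference went from 9.13, 9.14 and 9.02 to 10.23, 10.07 and 10.26, a change of 1.09 (SE 0.09, adjusted p = 0.000599), with let-7a-3p at -0.26. For miR-25, in an intron of MCM7, it went from -7.99, -7.82 and -7.70 to -8.69, -9.03 and -9.02, as miR-25-5p fell by 0.77 on the log2 scale and miR-25-3p was at 0.31. For miR-212 the change was -1.04, with miR-212-3p rising by 1.02 and miR-212-5p at -0.02. For miR-181b, with 5p rising by 0.47 and 3p at -0.44 (miR-181b-5p and miR-181b-3p), the change was 0.91. On library totals miR-181b-5p was at -0.0282 and not called. The arm changes of miR-301b, miR-33b and miR-181b were not past the threshold without day 7 replicate 2 (-1.38, 0.97 and 0.90) or without day 7 replicate 3 (-1.40, 0.99 and 0.86). For miR-210, by contrast, 5p minus 3p changed by 0.09 (SE 0.19, adjusted p = 0.732).

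**Figure D5:**
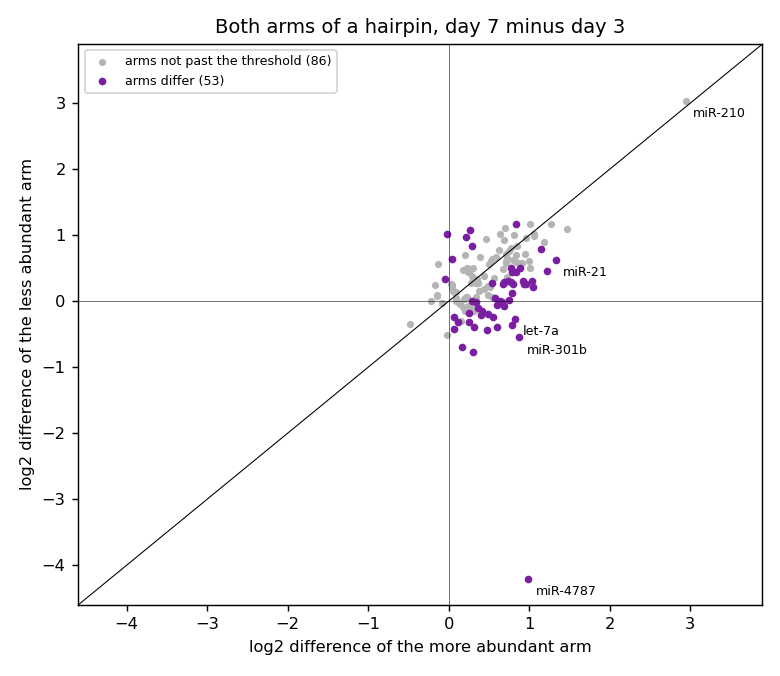
Difference between day 7 and day 3 (log2) of the less abundant arm (vertical axis) against that of the more abundant arm (horizontal axis) for 139 hairpins, with the line of equal change. The 53 hairpins whose arms changed differently are coloured, most lie below the line, and miR-4787 lies far below it.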

How the data were processed

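Small RNA libraries of HCT116 cells were analysed, 3 on day 3 and 3 on day 7, with 3 of day 5 as values only, and samples were grouped by the titles in the labels. Per the methods, the authors trimmed reads with Cutadapt, aligned them with the mature and hairpin miRNAs of GRCh37 and normalized by TMM with edgeR. The deposited log2 values are on a transformed scale whose name is not given in the sources used here, and differences of weakly expressed miRNAs may be compressed on it. They are not counts, so the depth of each library is unknown and no counting interval can be given. The tables' columns of the authors' own fold changes and p-values were not used. Aligner and annotation release are not given in the sources used here.

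The log2 values were fitted with limma (version 3.58.1, R 4.3.3), without a pseudocount, for miRNAs with a value of at least log2(10) in at least 3 of 6 libraries. P-values were adjusted by Benjamini-Hochberg over all of them, and 0.05 was the threshold. Arms of a hairpin were compared by limma on 5p minus 3p, and shares by exact permutation tests. Mature sequences came from RefSeq, and host genes from GENCODE release 44 by overlap on the same strand. Python 3.11.15, pandas 2.3.3, numpy 2.4.6 and matplotlib 3.10.9 were used.

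On simulated data, 190 of 200 changes of 2-fold among 559 miRNAs were called (95%), with 7 false calls. The simulated noise was independent for each miRNA and of equal spread on both days. No shift between libraries was simulated, so these figures do not measure errors that come from the scale. No 2 libraries held identical values. Members, lists and tests were chosen with earlier results of these data known. Named miRNAs were the 10 largest rises and falls without overlap between days, the 8 largest with a mean of at least 1000 (3 falls met this), the 10 most abundant, the 5 with the smallest difference among the 100 most abundant, the 8 hairpins with the largest arm change, 3 at either edge of the selection, and examples of the lists. miR-210-3p, miR-21-5p and miR-99b-5p came under more than 1 of these. miRNAs named for a match to another RNA, both arms of named hairpins, and miR-21-3p were chosen after their values were seen. Alternatives were the scale between libraries, the selection level, the replicate number as a block, an intensity trend, a 2-fold minimum and leaving out each library. Leaving out miRNAs that passed through 1 day only, and 1 fit over 9 libraries, were chosen after seeing the data.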

Additional observations from a re-analysis of the deposited data

How the results depend on the processing

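The scale between libraries decided the direction of small differences and changed how many miRNAs passed 2-fold in each direction. On library totals 29.2% of called miRNAs were higher, and 34.3% when each library was centred on its 200 most abundant miRNAs, beside 84.3% on the deposited scale. The median differences were -0.20 and -0.15. The signs of these miRNAs reversed on library totals and, where 2 values are given, also under centring: let-7i-5p (-0.0665, -0.0155), miR-100-5p (-0.41, -0.36), miR-128-3p (-0.45, -0.40), miR-148a-3p (-0.44, -0.38), miR-16-5p (-0.27, -0.22), miR-17-5p (-0.28, -0.23), miR-181b-5p (-0.0282), miR-191-5p (-0.0626, -0.0116), miR-22-3p (-0.14, -0.0856), miR-25-3p (-0.20, -0.14), miR-30c-5p (-0.12, -0.0676), miR-615-3p (-0.49, -0.44), miR-7976 (-0.29, -0.24), miR-92a-3p (-0.42, -0.37) and miR-99b-5p (-0.46, -0.41).

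With no selection by level, 221 of 2167 miRNAs passed and the median difference was 0.032, and 12 of the named miRNAs lost their call. With a mean of at least 100, 181 of 274 passed, and 28 of 55 hairpins. A 2-fold minimum left 58 miRNAs, of which 72.4% were higher, and these include miRNAs that passed the selection through 1 day only. Without those, 31 rose and 11 fell at least 2-fold. Over all 559, 5 rose and 35 fell at least 2-fold on library totals, and 7 and 32 under centring. Without miRNAs that passed through 1 day only, 280 of 538 passed, and with all 9 libraries in 1 fit 333 did; both were chosen after seeing the data. An intensity trend gave 318. Leaving out single libraries gave 229 to 301 calls, 82.1% to 86.5% of them higher, a median of 0.24 to 0.35, 28 to 52 hairpins and a change in the share of the 10 most abundant miRNAs of -0.76 to -0.41 percentage points. Among miRNAs not past the threshold, the sign changed with the library left out in miR-100-5p (-0.0793 to 0.198), miR-148a-3p (-0.144 to 0.186), miR-148b-3p (-0.132 to 0.0445), miR-200b-3p (-0.171 to 0.0513), miR-212-5p (-0.0958 to 0.0386), miR-615-3p (-0.124 to 0.0758), miR-96-5p (-0.142 to 0.0883), miR-99a-5p (-0.274 to 0.0042) and miR-99b-5p (-0.0763 to 0.114).

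Deviations of same-numbered libraries correlated at 0.11, 0.011 and 0.037. Day 3 replicates 1 and 3 correlated best with the day 7 library of their own number, and day 3 replicate 2 with day 7 replicate 3 (0.057). Correlations this weak cannot decide whether the replicate numbers pair the samples. The paper used a paired t-test to compare total miRNA reads between these days. With the replicate number as a block, 302 miRNAs passed, 286 of them shared with the fit without the block, 47 hairpins passed, and the paired exact permutation test of the top 10 share gave p = 0.25, the smallest that 3 pairs allow. The cause of these changes was not tested. Depth is unknown, so weak miRNAs cannot be given a counting error.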

Other observations

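Grouped by genomic position (hairpins within 10 kb of each other on 1 strand), several clusters had members that went different ways, and others moved together. Over all tested miRNAs, 45.3% rose and 8.41% fell, and on library totals 16.6% were higher and 40.4% lower. Of the 11 tested arms of the miR-17-92 cluster at chr13:91350605-91351391 on the plus strand (GRCh38), 2 rose, 2 fell and 7 did not pass, while 9 were lower on library totals. In the miR-23a, miR-27a and miR-24-2 cluster at chr19:13836287-13836659 on the minus strand, 5 of 6 arms rose, and 2 on library totals. In the miR-193b and miR-365a cluster at chr16:14303967-14309371 on the plus strand, 3 of 3 rose, 1 of them on library totals as well. Of the 8 tested arms of the cluster at chrX:50003148-50014683 on the plus strand, which holds miR-188, miR-362, miR-500a, miR-502 and miR-532, 1 rose, 1 fell and 6 did not pass. Mature miRNAs made from several hairpins are counted in each cluster that holds 1 of them.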
